A study of Mus musculus with 6 samples.

Results

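The genes described here encode 10 proteins of cone phototransduction, the cascade that turns light into an electrical signal in cone photoreceptors. They are the cone opsins Opn1sw and Opn1mw, the cone transducin subunits Gnat2, Gnb3 and Gngt2, the cone phosphodiesterase subunits Pde6c and Pde6h, the cone channel subunits Cnga3 and Cngb3, and the cone arrestin Arr3. They were chosen by name, all 10 were found among the 32371 genes of the count table, and all 10 were among the 18138 genes that passed a filter on low counts. The table held RNA-Seq libraries of cells from retinas of adult C57BL/6J mice, 3 from mice with AAV2-GFP in the vitreous body and 3 from mice with AAV2-Ezh2-Y726D, a form of the histone methyltransferase Ezh2 whose catalytic activity is lost through a single amino acid change. Both groups shared an optic nerve crush (ONC) 2 weeks after the injection, and both were collected 3 days after the ONC by sorting dissociated retinal cells for CD90.2, the product of Thy1. The comparison asks how transcript levels in these cells differ between the catalytically dead form and GFP. Nothing in the labels tells whether each library stands for its own animal or for pooled retinas, so the P values measure the spread between these libraries, which may be technical.

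Cones are the photoreceptors of daylight vision, and most mouse cones carry the short-wavelength opsin Opn1sw, the medium-wavelength opsin Opn1mw or both, in proportions that shift from ventral to dorsal retina. A photon absorbed by an opsin activates the α subunit of transducin, which releases the inhibitory subunit from phosphodiesterase. The phosphodiesterase lowers cGMP, the cGMP-gated channel closes, and the cell hyperpolarizes until arrestin and other proteins end the response. Rods use a parallel set of proteins encoded by separate genes.

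As most of the cone genes were lower in the same libraries, the promoters that RefSeq gives for them on GRCm38.p6 were read for the letters TAATC, which read GATTA on the other strand, the core bound by the photoreceptor homeodomain proteins CRX and OTX2, and for AGGTCA, which reads TGACCT on the other strand, a hexamer bound by nuclear receptors. RefSeq promoters were matched for 6 of the 10 genes, 7 promoters in all, and the 250 bases before each start were searched on both strands. The windows of Arr3 (chrX:100605247-100605496, plus strand) and Opn1sw (chr6:29380514-29380763, minus strand) are shown whole since they hold the most matches (that of Opn1sw lies in an intron of a longer GENCODE transcript, and those of Gnat2, Pde6h and Cnga3 also lie inside the GENCODE genes, with the Gnat2 match in an untranslated exon), and for Gnat2 the 30 bases around its match (chr3:108093036-108093065, plus strand) are shown. Capitals mark TAATC or AGGTCA on either strand.
Arr3: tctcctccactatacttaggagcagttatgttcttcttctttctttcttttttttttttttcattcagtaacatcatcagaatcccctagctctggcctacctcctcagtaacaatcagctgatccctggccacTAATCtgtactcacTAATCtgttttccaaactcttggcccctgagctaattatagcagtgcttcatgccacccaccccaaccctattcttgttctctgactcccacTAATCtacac
Opn1sw: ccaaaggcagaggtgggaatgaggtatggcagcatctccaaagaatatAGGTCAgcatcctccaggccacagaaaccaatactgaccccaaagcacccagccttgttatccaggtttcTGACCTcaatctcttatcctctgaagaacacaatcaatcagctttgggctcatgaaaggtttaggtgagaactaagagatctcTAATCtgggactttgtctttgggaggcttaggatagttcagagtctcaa
Gnat2: ggacaatccccgGATTAggaaggagctctc
The Arr3 window held TAATC 3 times. The Opn1sw window held it 1 time, 49 bases before the start, and held AGGTCA 2 times. The Gnat2 window held 1 match, 18 bases before the start, which was also the only match to the longer TAATCC. The windows of Opn1mw, Pde6h and Cnga3 held neither TAATC nor AGGTCA. Among 32851 RefSeq promoters, 19.8% held TAATC in the same window, 3.28% held it 2 or more times, 6.25% held TAATCC, 14% held AGGTCA and 1.36% held AGGTCA 2 or more times.

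Total counts lay between 9333244 and 23782520 per library. The rRNA gene CT010467.1 took 6.59% to 52.2% of the counts in the GFP libraries and 2.55% to 16.1% in the Ezh2-Y726D libraries, and 4460732 to 22024582 counts per library remained without it. Its share was 6.59% in GFP replicate 1, 50.9% in GFP replicate 2 and 52.2% in GFP replicate 3. GFP replicates 2 and 3 kept 5745352 and 4460732 other counts, against at least 15280377 in each Ezh2-Y726D library. The rRNA share and depth thus partly followed the group. Levels are given as CPM, the counts scaled to a common library size with TMM factors. Ezh2 reads, from the vector or the endogenous gene, amounted to 22.7, 23.9 and 26.4 CPM for GFP and 65.2, 65.6 and 65.2 CPM for Ezh2-Y726D, with every Ezh2-Y726D library above every GFP library. The labels call the cells retinal ganglion cells (RGCs), but the summed level of 9 rod phototransduction genes was 3137 to 3366 CPM, against 432 to 469.6 CPM for 9 RGC markers, so photoreceptor RNA was abundant in every library. These sums are not corrected for gene length, so their ratio does not measure the share of each cell. The rod sum includes Gnb1 (mean 711 CPM in GFP and 753 CPM in Ezh2-Y726D), which also serves other cells. Log2 fold changes compare Ezh2-Y726D with GFP, and adjusted P values are those of the quasi-likelihood test in edgeR after Benjamini-Hochberg adjustment over the 18138 genes.

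Cone phototransduction transcripts were lower in the Ezh2-Y726D libraries. Of the 10 genes, 9 fell at an adjusted P under 0.05, and Cngb3 did not pass the test. In the same direction 13.6% of all genes tested were called. No cone gene rose, at an adjusted or an unadjusted P or by DESeq2. In the edgeR fit 13.9% of all genes rose. When the list of genes tested was restricted to those at least as abundant as Cnga3, the lowest of the 10 by mean CPM, 15.5% fell. With a fold change over 1.5 as a further threshold, 6 of the 10 were called lower (Opn1sw, Gnat2, Gngt2, Pde6c, Pde6h and Cnga3), against 5.5% of all genes. In 9 of the 10 every Ezh2-Y726D library lay below every GFP library, which held for 18.9% of all genes tested. The median log2 fold change of the 10 was -0.63, with a range from -0.81 to -0.16.

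The summed level of the 10 genes was 722, 725 and 734 CPM in the GFP libraries and 482, 493 and 507 CPM in the Ezh2-Y726D libraries. The groups did not overlap, and the sum decreased by 32% (log2 difference -0.56). With library totals, which include CT010467.1, in place of TMM the log2 difference was 0.02. In these bulk libraries, fewer cone cells and less of these transcripts per cone cannot be told apart. Each library held between 4424 and 20577 reads of these genes, and counts of single genes ran from 60 for Cnga3 in GFP replicate 3 to 7416 for Gnb3 in GFP replicate 1, so the channel genes were measured with the least precision.

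**Figure D1:**
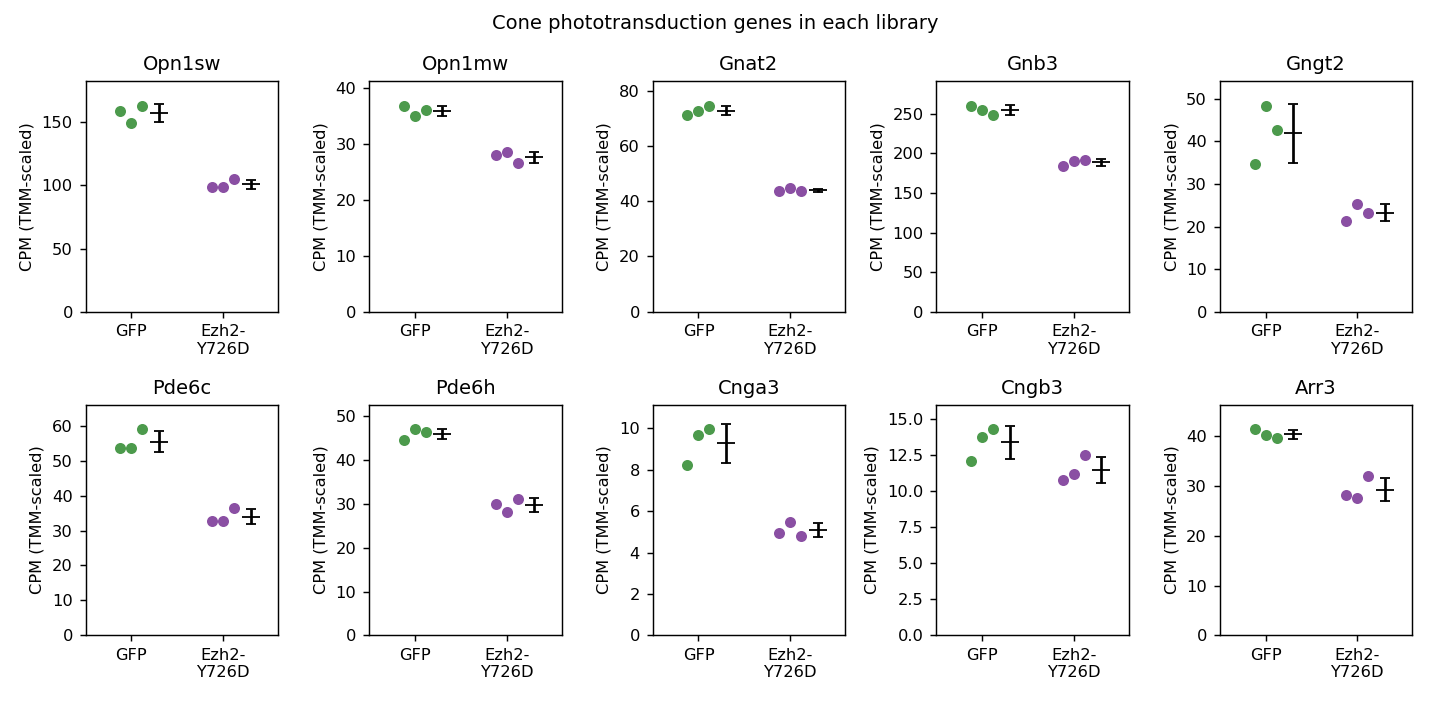
Level of each of the 10 cone phototransduction genes in each library, in CPM after TMM scaling on axes that start at 0. Points are single libraries of GFP and Ezh2-Y726D and the marker beside them is the mean with its SD (n = 3). The groups are apart in every panel except that of Cngb3, where the highest Ezh2-Y726D library (12.5 CPM) lies above the lowest GFP library (12.1 CPM).

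The opsins absorb the photon and are the defining products of cones. Opn1sw (ENSMUSG00000058831, GRCm38 chromosome 6, 29376671 to 29388468, minus strand) was at 159, 149 and 163 CPM in GFP and at 98.7, 98.7 and 105 CPM in Ezh2-Y726D. All Ezh2-Y726D libraries were low. The mean fell from 157 ± 7.16 to 101 ± 3.55 CPM (SD, n = 3), or by 0.64 on the log2 scale (standard error 0.0431, adjusted P = 3.14e-12). Of its exonic bases, 15.5% overlap Calu on the opposite strand, and whether counting used the strand is not given in the sources used here.

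Opn1mw (ENSMUSG00000031394, chromosome X, 74127464 to 74150760, plus strand) was at 36.9, 35.1 and 36.2 CPM in GFP and at 28, 28.6 and 26.6 CPM in Ezh2-Y726D. The groups did not overlap here either, but the level fell by 23.7% (log2 fold change -0.39, standard error 0.0606, adjusted P = 9.58e-06), short of a fold change of 1.5.

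The opsins were also compared with each other inside each library, which does not depend on scaling between libraries. Opn1sw made up 81.2%, 81% and 81.9% of the opsin counts in the GFP libraries, with exact 95% binomial intervals that reached from 78.8% to 84%. In the Ezh2-Y726D libraries its share was 77.9%, 77.6% and 79.7%, with intervals from 75.9% to 81%. These intervals cover counting error only. Every Ezh2-Y726D library had a lower share than any GFP library, although the intervals of all 3 overlapped that of GFP replicate 2 (78.8% to 83%). The mean share fell by 2.94 percentage points, from 81.3% ± 0.473 to 78.4% ± 1.18 (SD, n = 3; P = 0.1, exact 2-sided permutation test), and 0.1 is the smallest P that 3 libraries against 3 allow.

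Transducin relays the signal from opsin to phosphodiesterase. Gnat2, the cone α subunit that carries the GTP switch (ENSMUSG00000009108, chromosome 3, 108092789 to 108101432, plus strand), was at 71.2, 72.5 and 74.5 CPM in GFP and at 43.6, 44.6 and 43.8 CPM in Ezh2-Y726D. The libraries of each group lay close together, and the level fell by 39.2% (log2 fold change -0.72, standard error 0.0505, adjusted P = 7.81e-12).

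Gnb3, the β subunit (ENSMUSG00000023439, chromosome 6, 124834240 to 124840275, minus strand), was at 260.2, 255 and 248 CPM in GFP and at 184, 191 and 192 CPM in Ezh2-Y726D. It had the most reads of the 10 in every library. Its level fell by 26% (log2 fold change -0.43, standard error 0.0392, adjusted P = 9.5e-10), less than that of Gnat2. Gnb3 is also used by ON bipolar cells, where it serves the mGluR6 cascade, so its reads need not come from cones alone.

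Gngt2, the γ subunit (ENSMUSG00000038811, chromosome 11, 95837216 to 95845734, plus strand), was at 34.6, 48.4 and 42.8 CPM in GFP and at 21.3, 25.3 and 23.2 CPM in Ezh2-Y726D. All Ezh2-Y726D libraries were low, and the GFP libraries were spread more widely, relative to their mean, than for any other cone gene (41.9 ± 6.93 CPM, SD, n = 3). Gngt2 fell by 41.9% (log2 fold change -0.78, standard error 0.0865, adjusted P = 3.72e-08), and the log2 fold change became -0.98 without GFP replicate 1 and -0.67 without GFP replicate 2. Gngt2 transcripts are also found in monocytes, and 12.5% of its exonic bases overlap Abi3 on the opposite strand, a gene of immune cells.

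Phosphodiesterase hydrolyses cGMP. Pde6c, its cone catalytic subunit (ENSMUSG00000024992, chromosome 19, 38132781 to 38183958, plus strand), was at 53.7, 53.5 and 58.9 CPM in GFP and at 32.7, 32.8 and 36.3 CPM in Ezh2-Y726D. The groups were well apart (log2 fold change -0.69, standard error 0.0601, adjusted P = 5.09e-10).

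Pde6h, the cone inhibitory subunit that holds the enzyme silent in darkness (ENSMUSG00000064330, chromosome 6, 136923832 to 136968865, plus strand), was at 44.7, 47 and 46.4 CPM in GFP and at 30.1, 28.1 and 31.1 CPM in Ezh2-Y726D. It fell by 34.6% (log2 fold change -0.61, standard error 0.0598, adjusted P = 4.06e-09), close to the 37.9% of its catalytic partner. Arhgdib overlaps 1.73% of its exonic bases on the opposite strand. The ratio of Pde6c to Pde6h CPM was 1.2 ± 0.0639 in GFP and 1.14 ± 0.0473 in Ezh2-Y726D (SD, n = 3), the groups overlapped, and an exact 2-sided permutation test gave P = 0.3.

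The cyclic nucleotide-gated channel carries the dark current. Cnga3, its pore-forming cone subunit (ENSMUSG00000026114, chromosome 1, 37214434 to 37263384, plus strand), was at 8.21, 9.67 and 9.95 CPM in GFP and at 4.96, 5.49 and 4.81 CPM in Ezh2-Y726D. Every Ezh2-Y726D library was low. The fall of 43% was the largest point estimate among the 10 genes (log2 fold change -0.81, standard error 0.124, adjusted P = 7.08e-06), with a 95% interval of the log2 fold change from -1.06 to -0.56 that includes the estimates for 5 others.

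Cngb3, the modulatory subunit of the same channel (ENSMUSG00000056494, chromosome 4, 19280850 to 19510623, plus strand), was at 12.1, 13.8 and 14.3 CPM in GFP and at 10.8, 11.2 and 12.5 CPM in Ezh2-Y726D. The groups overlapped. Its log2 fold change of -0.16 (standard error 0.0969) did not pass the test (adjusted P = 0.249, unadjusted P = 0.11), and its 95% interval from -0.36 to 0.04 lay above the estimates of the other 9 genes. Without GFP replicate 1 its log2 fold change was -0.28 (adjusted P = 0.125) and that of Opn1mw, the nearest in the fit of all libraries, was -0.36.

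Since both subunits were counted in the same libraries, their ratio was formed per library. Cnga3 stood to Cngb3 at 0.676, 0.701 and 0.698 in GFP and at 0.458, 0.489 and 0.384 in Ezh2-Y726D. All Ezh2-Y726D ratios were low, and the mean fell from 0.692 ± 0.0134 to 0.444 ± 0.0541 (SD, n = 3; exact 2-sided permutation P = 0.1). This was 1 of 6 ratios between partners of a complex or between the opsins, chosen after the values were seen, and 0.1 became 0.15 after Benjamini-Hochberg adjustment over the 6. Gnat2 to Gnb3 (0.286 ± 0.0134 in GFP and 0.233 ± 0.00437 in Ezh2-Y726D) and Gngt2 to Gnb3 (0.165 ± 0.029 and 0.123 ± 0.00846) were also apart between the groups with an exact P of 0.1, and Gnat2 to Gngt2 was not (exact P = 0.5).

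**Figure D2:**
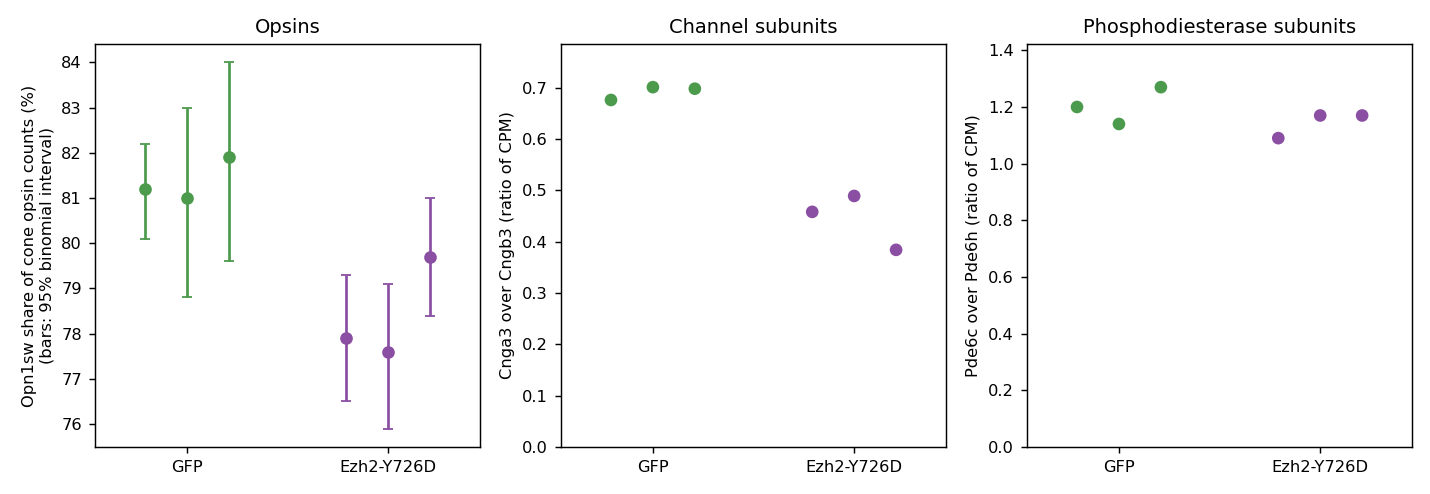
Share of Opn1sw in the opsin counts in percent with exact 95% binomial intervals (axis not from 0), ratio of Cnga3 to Cngb3 CPM and ratio of Pde6c to Pde6h CPM, for each GFP and Ezh2-Y726D library. The opsin share and the channel ratio are lower in each Ezh2-Y726D library than in any GFP library, and the phosphodiesterase ratios of the groups overlap.

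Arr3, the cone arrestin that quenches the activated opsin (ENSMUSG00000060890, chromosome X, 100605497 to 100618493, plus strand), was at 41.3, 40.1 and 39.5 CPM in GFP and at 28.2, 27.6 and 31.9 CPM in Ezh2-Y726D. The groups did not overlap, and the level fell by 27.8% (log2 fold change -0.47, standard error 0.0639, adjusted P = 1.27e-06), short of the fold change of 1.5.

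The 10 genes were next set against each other by comparing each with the mean log2 level of the other 9 in the same library, a measure free of scaling. Relative to the other 9, Cngb3 was higher in the Ezh2-Y726D libraries by 0.41, Opn1mw by 0.23 and Gnb3 by 0.18 on the log2 scale, each without overlap between the groups. Cnga3 decreased by 0.31 and Gnat2 by 0.15 on the same scale, again without overlap. For Opn1sw, Pde6c, Pde6h, Gngt2 and Arr3 the groups overlapped. In all 5 cases without overlap the exact 2-sided permutation test gave its smallest P of 0.1 (0.2 after adjustment over the 10 genes), so unequal falls are described here but did not pass a threshold.

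Per kilobase of exonic length in GENCODE vM21, Gnb3 had the highest level in the GFP libraries (96.7 ± 2.3 CPM per kb, SD, n = 3), followed by Opn1sw at 61.5 ± 2.8. Gnat2 (24.3), Opn1mw (23.1), Gngt2 (22.3), Pde6c (18.6) and Arr3 (17.1) formed a middle group, in which the library range of Gngt2 (18.4 to 25.8) overlapped those of Gnat2, Opn1mw and Pde6c, so its place among them is not resolved. Pde6h was at 5.87 CPM per kb over an exonic length of 7846 bases that includes long alternative transcripts, and the channel subunits were lowest, Cngb3 at 2.85 and Cnga3 at 2.34. In the Ezh2-Y726D libraries Gnb3 (71.7) and Opn1sw (39.4) again led and the channel subunits again came last, with Cngb3 at 2.45 and Cnga3 at 1.29. The order changed in the middle, where Opn1mw (17.8) stood above Gnat2 (14.7), followed by Arr3 (12.4), Gngt2 (12.4) and Pde6c (11.4), whose library ranges all overlapped each other.

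Rod phototransduction provided the nearest comparison. Of 9 rod counterparts (Sag, Gnat1, Gnb1, Gngt1, Pde6a, Pde6b, Pde6g, Cnga1 and Cngb1), 1 fell, 2 rose and 6 did not pass the test, with a median log2 fold change of 0.02 against -0.63 for the cone genes. Among all genes tested 13.6% fell and 13.9% rose, so rod counts this small are not read as a change of the rod genes. Cnga1, the rod channel subunit, rose (log2 fold change 0.19, adjusted P = 0.00462), as did Gnat1, the rod transducin α subunit (0.12, adjusted P = 0.0313). Gngt1, the rod transducin γ subunit, fell (-0.34, adjusted P = 0.000323). With DESeq2 its log2 fold change was -0.37 but the call was lost (adjusted P = 0.0606), and without GFP replicate 3 it was -0.22 (adjusted P = 0.00315). These 3 genes were named after their values were seen. Cnga1 was at 74.9, 77 and 82.1 CPM in GFP and at 84.1, 86.8 and 92.8 CPM in Ezh2-Y726D, so the rod channel subunit was high where its cone counterpart Cnga3 was low. Without GFP replicate 1 or without Ezh2-Y726D replicate 3 neither Cnga1 nor Gnat1 passed, without GFP replicate 2 or without Ezh2-Y726D replicate 2 Cnga1 passed and Gnat1 did not, and with library totals in place of TMM no rod gene passed in either direction, at an adjusted or unadjusted P.

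The difference between cone and rod genes was tested in the log2 ratio of each cone gene to its rod counterpart per library. The ratio of Gnat2 to Gnat1 was -3.7, -3.67 and -3.71 in GFP and -4.46, -4.56 and -4.55 in Ezh2-Y726D, and it decreased by 0.83. The groups were far apart relative to their SDs of 0.0188 and 0.054. Cnga3 against Cnga1 decreased by 0.98, Pde6c against Pde6b by 0.73 and Pde6h against Pde6g by 0.63. Gnb3 against Gnb1 decreased by 0.51, Gngt2 against Gngt1 by 0.46 and Arr3 against Sag by 0.39. In these 7 of 8 ratios the groups did not overlap, and each had an exact 2-sided permutation P of 0.1, the smallest possible (0.114 after adjustment over the 8 ratios). Only Cngb3 against Cngb1 overlapped, with a difference of -0.15 and an exact P of 0.2. Gnb1 also serves other cells, so its ratio is not a pure cone-to-rod ratio.

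**Figure D3:**
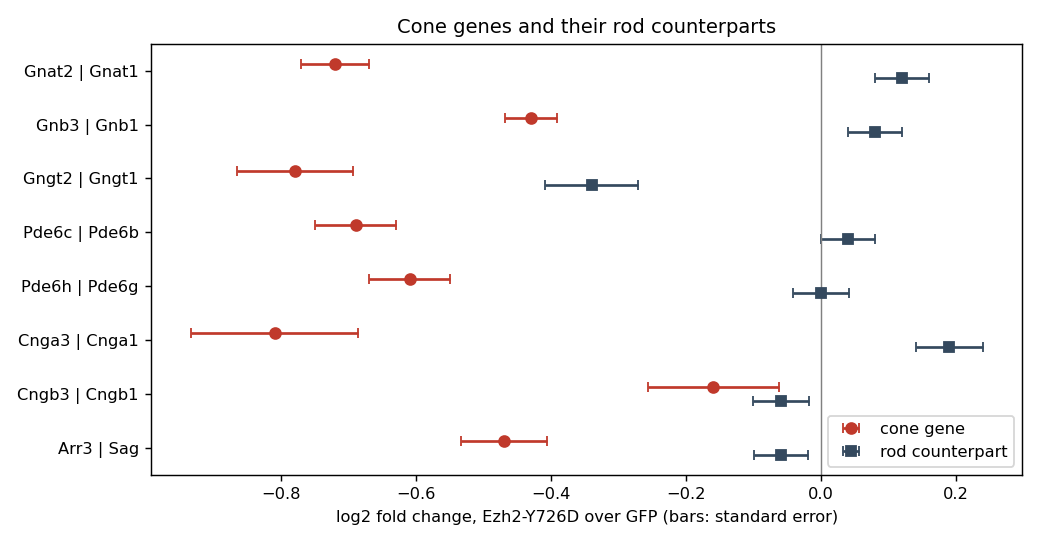
Log2 fold change (Ezh2-Y726D against GFP) with its standard error for 8 cone phototransduction genes, each beside its rod counterpart, ordered by role from transducin to arrestin, after TMM scaling. The cone genes lie between -0.81 and -0.16 and the rod genes between -0.34 and 0.19.

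The wider cascade is read against all genes tested, of which 13.6% fell and 13.9% rose. Of 20 other phototransduction genes, for guanylate cyclase and its activators, the ion exchangers, opsin kinase, the complex that ends the transducin signal, the chaperones of phosphodiesterase and the visual cycle, 3 fell, 1 rose and 16 did not pass the test, with a median log2 fold change of -0.02. Most of these proteins are used by rods as well as cones. Those that fell were Rgs9bp, the membrane anchor of the transducin GTPase activator (log2 fold change -0.24, adjusted P = 0.000643), Aipl1, the phosphodiesterase chaperone (-0.24, adjusted P = 0.000249), and Grk1, the opsin kinase (-0.15, adjusted P = 0.00494). Slc24a1, the rod exchanger of sodium, calcium and potassium, rose (0.22, adjusted P = 0.000493). These 4 were named after their values were seen, and none reached a fold change of 1.5.

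Among 6 cone identity genes outside the cascade, 3 fell and none rose, at an adjusted or an unadjusted P or with DESeq2, which called 1 lower. The shares over all genes tested were 13.6% lower and 13.9% higher, for this list and for the photoreceptor genes below. Kcne2, a potassium channel subunit of cones, was at 15.6, 16.4 and 15.8 CPM in GFP and at 8.46, 9.65 and 10.5 CPM in Ezh2-Y726D, well apart between the groups (log2 fold change -0.73, standard error 0.0959, adjusted P = 7.45e-07). Otop3 (-0.54, adjusted P = 0.0187) and Ccdc136 (-0.15, adjusted P = 0.014) also fell, but neither passed without GFP replicate 1 (adjusted P = 0.0772 and 0.0675), without Ezh2-Y726D replicate 2 (0.0628 and 0.0551) or with thinned counts (0.0679 and 0.428), which left Kcne2. Otop3 did not pass without GFP replicate 2 (0.0698), nor Ccdc136 without Ezh2-Y726D replicate 3 (0.065). The transcription factors that specify cones were near 0 or did not pass the test, with log2 fold changes of 0.06 for Thrb, 0.02 for Rxrg and -0.43 for Sall3 (adjusted P = 0.0602). The summed level of the 6 genes was 154 to 159 CPM in GFP and 139 to 144 CPM in Ezh2-Y726D. Of 7 genes shared by photoreceptors or specific to rods, 2 fell, 1 rose (Prph2, a structural protein of the outer segment, log2 fold change 0.13, adjusted P = 0.0269) and 4 did not pass, all 3 named after their values were seen. Those that fell encode the homeodomain proteins mentioned with the promoters. A link of these falls to the TAATC matches or to the cone genes was not tested. Arr3, Opn1sw and Gnat2, whose windows held TAATC, fell, as did Opn1mw, Pde6h and Cnga3, whose windows did not. Otx2, which bipolar cells also express, was at 85.3, 84.6 and 90.2 CPM in GFP and at 55.8, 57.8 and 61.7 CPM in Ezh2-Y726D (log2 fold change -0.56, adjusted P = 8.19e-10). Crx was at 218, 227 and 247 CPM in GFP and at 180.4, 181 and 183 CPM in Ezh2-Y726D (log2 fold change -0.34, adjusted P = 3.94e-07). With library totals no gene of either list passed in either direction, at an adjusted or unadjusted P, and the log2 fold changes were -0.24 for Kcne2, -0.06 for Otx2 and 0.18 for Crx.

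Some markers of other cells that the sort could hold also differed between the groups. Among all genes tested 13.6% fell and 13.9% rose, so small counts in a list are not read as a change of those cells. Of 11 ON bipolar markers 9 fell and 1 rose, and their summed level went from 1352 to 1369.8 CPM in GFP to 1083 to 1121 CPM in Ezh2-Y726D. Of 5 OFF cone bipolar markers 4 fell and 1 rose (341 to 363 CPM and 215 to 223 CPM). The ON bipolar list bears on Gnb3. The lists that bear on Gngt2 were lower as well, with 9 of 11 microglia and macrophage markers down and 1 up (1069.9 to 1194 CPM and 654 to 770.4 CPM), and 5 of 6 monocyte markers down (172 to 194 CPM and 102 to 117 CPM). All 4 T cell markers, 2 of 5 Müller glia markers and 2 of 4 endothelial markers fell. DESeq2 called 3 Müller glia markers and 1 endothelial marker lower. It called 0 OFF cone bipolar markers and 0 microglia and macrophage markers higher. In the other direction all 6 amacrine markers rose (631 to 705 CPM and 1067 to 1109.9 CPM). Of 9 RGC markers 2 rose (1 with DESeq2) and none fell (1 at an unadjusted P, 0 with DESeq2), with sums of 441 to 454 CPM and 432 to 469.6 CPM. No marker was at 0 in all libraries. With library totals 1 microglia and macrophage marker fell and no other marker of these lists passed. The part of these cells in the cone result was not tested. Without Gnb3 and Gngt2, the other 8 cone genes summed to 427, 421 and 443 CPM in GFP and to 277, 277 and 292 CPM in Ezh2-Y726D, and 7 of the 8 fell.

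**Figure D4:**
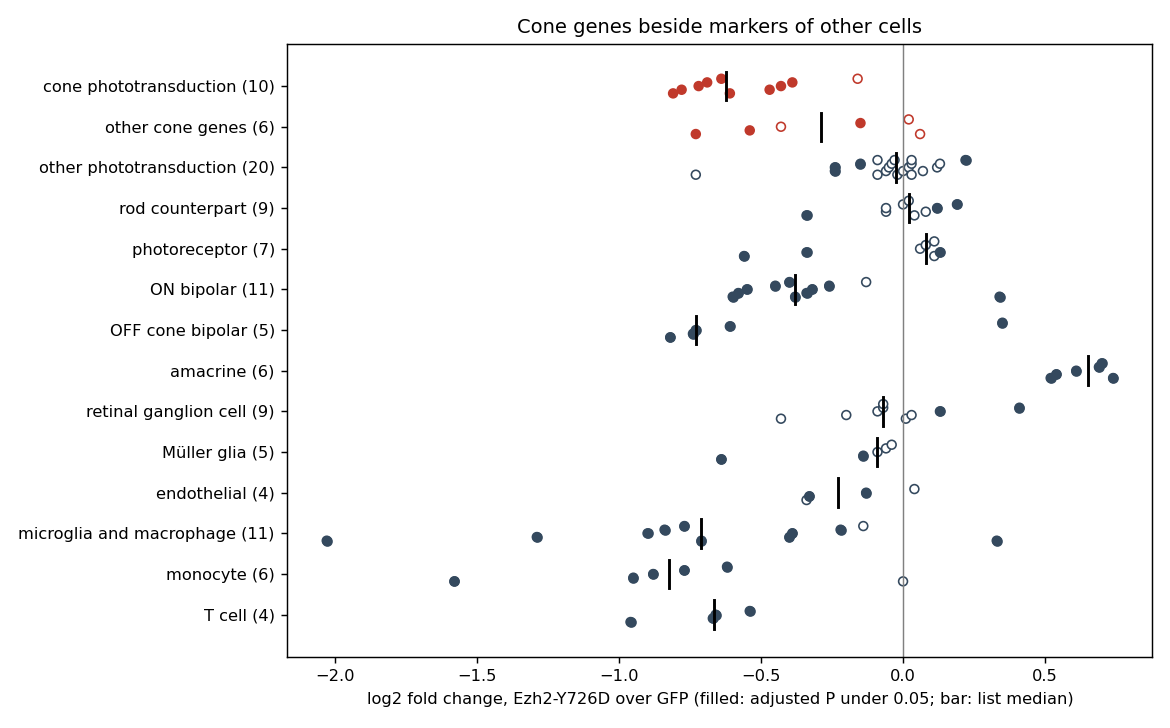
Log2 fold change (Ezh2-Y726D against GFP) of every gene of the cone list and of each comparison list, where filled points passed an adjusted P under 0.05 and the bar is the list's median. Cone genes lie low (median -0.63) with OFF cone bipolar (-0.73), microglia and macrophage (-0.71), monocyte (-0.83) and T cell (-0.66) markers, rod counterparts lie near 0 (0.02) and amacrine markers lie high (0.65).

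Of the alternatives tried, library totals moved the log2 fold change of each cone gene most. With library totals, which carry the unequal share of CT010467.1, all genes tested had a median log2 fold change of 0.49 and the 10 cone genes of -0.13. On that scale Arr3 (0.03), Opn1mw (0.11), Gnb3 (0.07) and Cngb3 (0.31) had a positive sign and none of the 10 passed the test in either direction, at an adjusted or unadjusted P. Relative to the median of all genes, the cone median was -0.62 there and -0.63 with TMM. Once CT010467.1 was left out of the totals, the cone median was -0.65 and that of all genes -0.02. A change of scaling shifts all genes nearly alike, so it says little about these distances. With DESeq2, other filters on low counts, thinned counts and each library left out in turn, each of the 10 genes lay below the median of all genes and below the median of the rod counterparts.

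**Figure D5:**
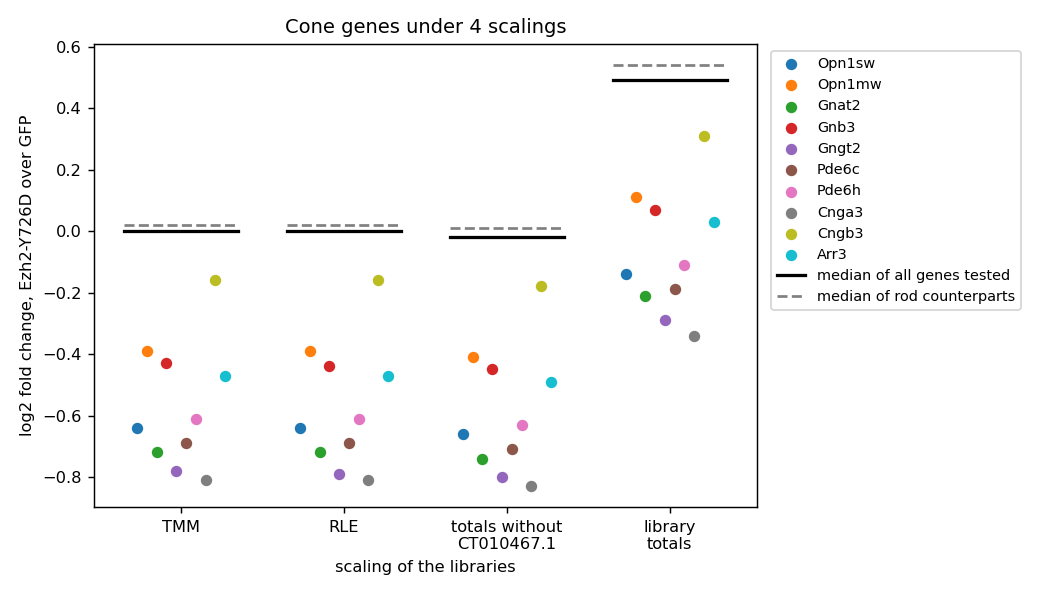
Log2 fold change (Ezh2-Y726D against GFP) of each cone phototransduction gene under TMM, RLE, library totals without CT010467.1 and library totals, with the median of all genes tested and of the rod counterparts. With library totals all values shift upward with the median of all genes (0.49), and Arr3, Opn1mw, Gnb3 and Cngb3 change sign, while the cone genes stay below both medians.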

How the data were processed

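RNA-Seq of CD90.2-sorted retinal cells was compared between 3 GFP and 3 Ezh2-Y726D libraries, grouped and numbered by the labels. The authors deposited whole-number read counts per gene without normalization. The submitters' processing notes name STAR 2.7.0d and GRCm38. The counting tool, its annotation and its use of strand are not given in the sources used here. Symbols were found for 32325 of 32371 gene identifiers, and 32342 were found in GENCODE vM21 (GRCm38), which gave coordinates and exonic lengths.

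Counts were tested with edgeR 4.0.16 in R 4.3.3 (TMM factors 0.647 to 1.31, filterByExpr with 10 counts and a total of 15, quasi-likelihood test, Benjamini-Hochberg adjustment over 18138 genes). Thresholds were an adjusted P under 0.05 and, for fold changes, 1.5. Ratios between cone and rod genes used CPM plus 0.5, and all ratios were compared with exact 2-sided permutation tests over libraries. Levels between genes are TMM-scaled CPM per kb.

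The members and lists were chosen with earlier results of these data known. All 10 members are named, with Ezh2 as the label check. Of other lists, at most 3 genes each that were called with a fold change over 1.5 were to be named, and only where a result on a member turned on them, which left Kcne2. All others were named after their values were seen. Alternatives were RLE, library totals with and without CT010467.1, DESeq2 1.42.0, other filters on low counts, a replicate block, thinning to 4460732 counts, pseudocounts of 0.1 and 2, other fold change thresholds, and leaving out each library. Some further items are not reported here.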

Additional observations from a re-analysis of the deposited data

How the results depend on the processing

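The count of 9 cone genes lower was unchanged under RLE, library totals without CT010467.1, DESeq2, both filters on low counts, thinning and the omission of any single library (9 to 9), and Cngb3 passed in none of these. With library totals 0 cone genes, 0 other phototransduction genes and 0 rod counterparts were lower and 0 of the other phototransduction genes and rod counterparts were higher, 19 of all genes were lower and 46 higher, the log2 fold changes were 0.03 for Arr3, 0.11 for Opn1mw, 0.31 for Cngb3 and 0.07 for Gnb3, and the log2 difference of the summed CPM was 0.02. These totals include CT010467.1. With a fold change over 1.5, 998 genes were lower and 457 higher, and over 2, 309 were lower, 134 higher and 0 cone genes were lower. DESeq2 called 0 rod counterparts lower, and 1 was higher with library totals that exclude CT010467.1 and with thinned counts. The summed CPM without Gnb3 and Gngt2 differed by -0.61. Of the other phototransduction genes 2 were higher with no filter, with at least 10 counts in every library and with thinned counts. When libraries were left out in turn, 1 to 3 of them and 0 to 3 rod counterparts were higher, and 1853 to 2288 of all genes were lower and 1919 to 2314 higher. Depth limits Cnga3, which had the largest standard error and went to -1.19 with thinned counts.

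Whether the replicate numbers pair the libraries is not resolved. The correlations of deviations between same-numbered libraries were low, at 0.14, 0.05 and 0.04, but every library correlated best with its own number, and no test was run. With the replicate block 9 cone genes were lower and 2 other phototransduction genes higher.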
